A study of Mus musculus with 22 samples.

Results

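The genes described here are 8 genes that mark oligodendrocyte precursor cells: Pdgfra, Cspg4, Vcan, Sox6, Lhfpl3, C1ql1, Neu4 and Gpr17. They were chosen by symbol from the table of 17306 genes measured in lumbar spinal cord, by a rule that uses no measured value but was set with earlier results of these data known. All 8 were found under a single Entrez identifier each, and all 8 passed the filter on low values that left 16765 genes for testing.

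RNA was sequenced from the spinal cord (L4-L6) of 22 mice of strain C57BL6J and genotype wildtype, aged 12 to 14 weeks at collection, all of which had received 1 mg of monoiodoacetate (MIA) in the knee joint to induce joint pain. The study asks how SAFit2, an inhibitor of the co-chaperone FKBP51, acts when given early or late in this model. Tissue was collected on day 30 after MIA. The methods describe lumbar quadrants separated by side, and the study names the dorsal horn quadrants of the injured side as those sequenced. No mouse without MIA was sequenced, so an effect of MIA itself cannot be read from these libraries.

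The 5 Early SAFit2 mice received SAFit2 at 100 mg/kg in a vesicular phospholipid gel on days -3 and 4, and the 6 Early Vehicle mice the gel without drug on those days. The 5 Late SAFit2 mice received the same dose on days 20 and 27, and the 6 Late Vehicle mice the gel alone. These days are those of the series description, whereas the sample labels give days 3 and 4 for early treatment. Early SAFit2 mice carry SAFit1 in their sample titles but SAFit2 as treatment label, and the label was followed. Early and late are marked as batches in the labels, so timing and batch cannot be told apart in any comparison of early with late mice.

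Oligodendrocyte precursor cells are glia that persist in the adult spinal cord, divide slowly and give rise to myelinating oligodendrocytes. They respond to platelet-derived growth factor through its alpha receptor, carry chondroitin sulfate proteoglycans on their surface and in the surrounding matrix, and receive synaptic input from neurons. As they commit to differentiation they lower the receptor and the proteoglycan, pass through a stage marked by the receptor gene Gpr17, and then express the genes of myelin.

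Values are log2 CPM, reads per 1000000 of the scaled library size on the log2 scale. Depth ranged from 11352989 to 24433349 reads on genes per library, and the precursor genes held between 46 reads (Neu4) and 1710 reads (Lhfpl3) in a single library. None was at 0 reads in any library. The transcription factor gene Olig1 was the most abundant of 18 other precursor genes (mean log2 CPM 7.29), and none of those 18 was at 0 reads in any library. Of 4 Hox genes listed for lumbar cord, Hoxc10 had the highest mean (log2 CPM 6.64) and none was at 0 reads in any library. Hox genes of other levels were not compared, so these values do not establish the level of the tissue. The tissue also carried the RNA of the whole oligodendrocyte lineage and of other cells, with a mean log2 CPM of 13.08 for the myelin gene Mbp and 11.54 for the neuronal gene Snap25. In bulk tissue, fewer cells of a type and less RNA per cell cannot be told apart, and this applies to each level below.

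Levels of the 8 genes were compared with each other per kilobase of exon. On this scale the mean log2 level over 22 libraries was 4.34 ± 0.37 (SD) for Lhfpl3, 3.03 ± 0.29 for Gpr17, 2.53 ± 0.57 for C1ql1 and 2.12 ± 0.23 for Pdgfra. The means were 0.95 ± 0.29 for Neu4, 0.69 ± 0.26 for Vcan, 0.31 ± 0.39 for Cspg4 and 0.030 ± 0.19 for Sox6. Of the neighbours in this order, Lhfpl3 stood above Gpr17 and Pdgfra above Neu4 in 22 of 22 libraries. Each of the other neighbours changed places in some libraries: Gpr17 was above C1ql1 in 17 libraries, Neu4 above Vcan in 18, and C1ql1 above Pdgfra, Vcan above Cspg4 and Cspg4 above Sox6 in 16 each. The difference of Gpr17 over C1ql1 was 0.50 ± 0.50 (SD between libraries), and those of the other 4 pairs were smaller than their SD. The order rests on the length used, which joined all exons of a gene. This length was 10024 bases in Pdgfra and 14832 in Sox6, beside 6834 and 8668 in their longest transcripts. In C1ql1 both lengths were 1473 bases. Levels per kilobase of transcript were not compared. The order also depended on the group. In Late SAFit2 mice Vcan (0.94) had a higher mean than Neu4 (0.68) and Sox6 (0.083) a higher one than Cspg4 (0.047), and in Late Vehicle mice Cspg4 (0.59) stood above Vcan (0.57).

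**Figure D1:**
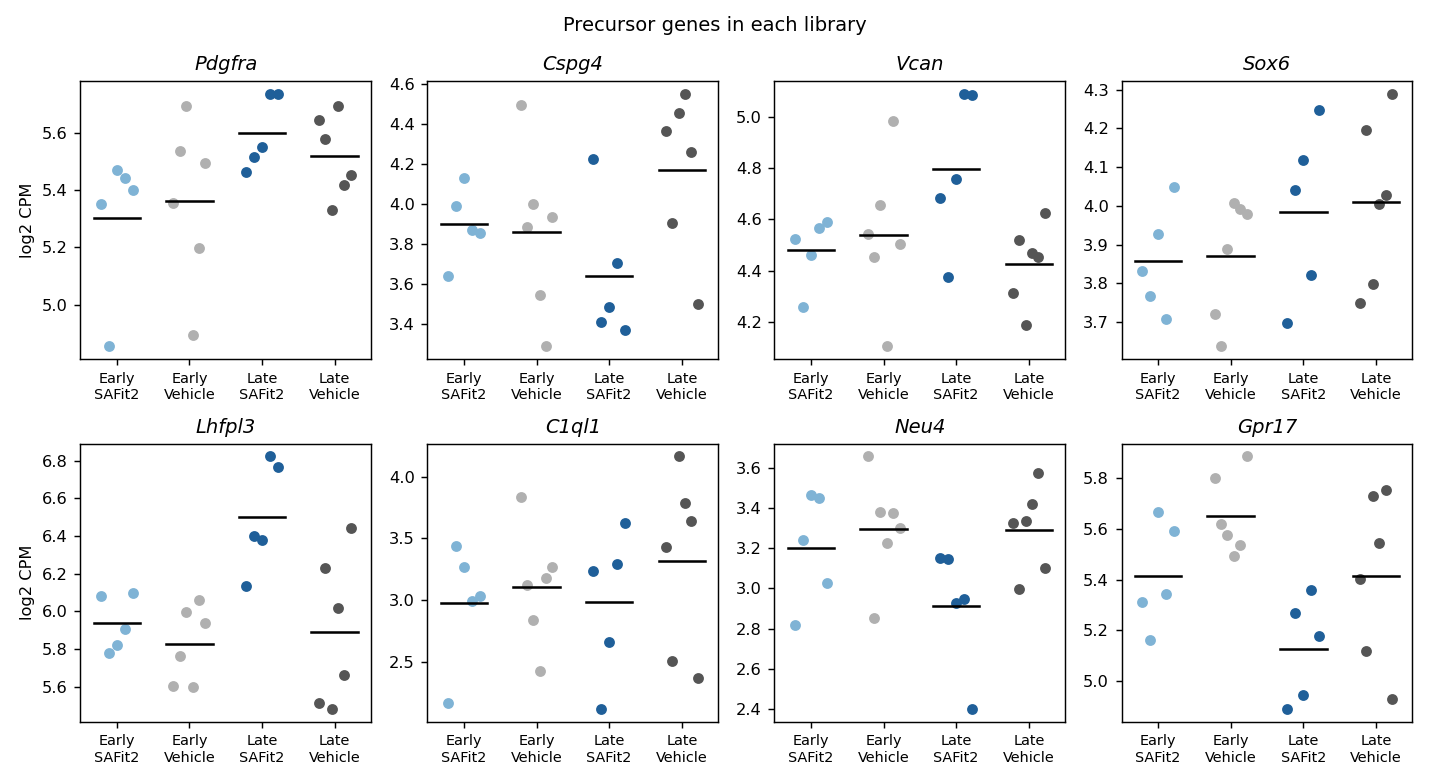
Level of each of the 8 precursor genes in log2 CPM (vertical axis, a separate scale for each gene) in the 22 libraries by group (horizontal axis), with 1 point per mouse and a line at the group mean. For each gene the SAFit2 and Vehicle points of the same timing overlap; the widest late separation is that of Lhfpl3, with Late SAFit2 points from 6.13 to 6.82 and Late Vehicle points from 5.48 to 6.44.

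The late comparison asked what SAFit2 given in established pain changes. A gene was called in it at a Benjamini-Hochberg adjusted p under 0.05 in limma, over all genes tested, and a fold change of at least 1.2. Of the 8 precursor genes, 1 was called (Lhfpl3, higher), beside 12.1% of all genes tested (2021 of 16765, 894 higher and 1127 lower). Limma voom called Lhfpl3 among 876 of all genes (484 higher and 392 lower), and median centring gave 1139 higher and 924 lower, so the balance of directions over all genes depended on the method. The share of the 8 is near the background and is no result about the precursor genes as a set. At an unadjusted p under 0.05, 4 of the 8 were counted beside 34.5% of all genes. The median late log2 fold change was -0.16 over the 8 genes, with 3 positive and 5 negative, and -0.05 over all genes tested. For none of the 8 did the late groups fail to overlap, beside 1.71% of all genes.

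Pdgfra (Entrez 18595, chromosome 5, 75152292 to 75198215 in GRCm38) encodes the alpha receptor for platelet-derived growth factor, on which survival and division of the precursors depend. Its log2 CPM in Late SAFit2 mice was 5.46, 5.52, 5.55, 5.74 and 5.74, and in Late Vehicle mice it ran from 5.33 through a median of 5.52 to 5.69. The groups overlapped, with replicates 4 and 5 of Late SAFit2 just above the highest Vehicle mouse. SAFit2 over Vehicle gave a log2 fold change of 0.08 (SE 0.13, adjusted p 0.691, exact permutation p 0.342), and no difference was called. In early mice the levels lay between 4.85 and 5.47 with SAFit2 and between 4.89 and 5.69 with Vehicle, with a log2 fold change of -0.06 (SE 0.13, adjusted p 0.9999, exact permutation p 0.721).

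Pdgfra is also read from fibroblasts of the meninges and vessels. The summed level of 7 fibroblast genes, of which Dcn was the most abundant, was 126, 54.2, 398, 534 and 954 CPM in Late SAFit2 replicates 1 to 5 and 175 to 304 CPM in Late Vehicle mice. It varied widely within Late SAFit2, and 0 of the 7 genes were called in either direction by limma, beside 12.1% of all genes. None of the 7 was at 0 reads in any library, and the part of fibroblast RNA in the level of Pdgfra was not tested.

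Cspg4 (Entrez 121021, chromosome 9, 56865033 to 56899870) encodes the surface proteoglycan NG2, by which precursors are commonly stained, and which pericytes also carry. In Late SAFit2 replicates 1 to 5 its log2 CPM was 4.22, 3.41, 3.48, 3.70 and 3.37, while Late Vehicle mice ran from 3.50 through a median of 4.31 to 4.55. All 5 Late SAFit2 mice lay below the Vehicle median, but Late SAFit2 replicate 1 was high and Late Vehicle replicate 6 low, so the groups overlapped. The log2 fold change was -0.53 (SE 0.20, adjusted p 0.0728, exact permutation p 0.0476), which missed the threshold on the adjusted p. The gene was called without Late SAFit2 replicate 1 (-0.68, adjusted p 0.0263), without Late Vehicle replicate 2 (-0.59, adjusted p 0.0495) and without Late Vehicle replicate 6 (-0.67, adjusted p 0.0139), and in none of the other 19 fits that left out 1 library. Library quality weights gave -0.74 (adjusted p 0.00124), past the threshold. The replicate number as a block gave -0.67 (adjusted p 0.022), the same value as without Late Vehicle replicate 6, since the block drops that mouse. After removal of each library's trend on GC content and transcript length the value was 0.04, so its sign turned.

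The summed level of 10 mural genes ran from 132 to 171 CPM in Late SAFit2 and from 135 to 201 CPM in Late Vehicle mice. Their most abundant gene was Vtn, and none was at 0 reads in any library. Of the 10, 1 was called, Notch3, lower (-1.07), beside 12.1% of all genes. Over the 18 settings that left out no single library Notch3 ran from -1.33 to -0.28 and was called in 12. Whether mural cells had a part in the values of Cspg4 was not tested.

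Vcan (Entrez 13003, chromosome 13, 89655312 to 89742509) encodes versican, a chondroitin sulfate proteoglycan of the matrix around the precursors. Its log2 CPM was 4.68, 4.37, 4.76, 5.09 and 5.08 in Late SAFit2 replicates 1 to 5, and from 4.19 through a median of 4.46 to 4.62 in Late Vehicle mice. Late SAFit2 mice were above the highest Vehicle mouse in all but replicate 2, which lay inside the Vehicle range, so the groups overlapped. Fibroblasts express Vcan too. Within Late SAFit2, replicate 2 (54.2 CPM) was also lowest and replicates 4 (534 CPM) and 5 (954 CPM) highest in the summed fibroblast genes. In early mice this order did not hold throughout. Early SAFit2 replicate 2 had the highest fibroblast sum of its group (538 CPM) and the lowest Vcan (4.26). In Early Vehicle mice replicate 4 was lowest in both (234 CPM and 4.11). Replicate 2 there had the highest sum (696 CPM), with Vcan at 4.45, below the median of 4.52. The part of fibroblast RNA in the level of Vcan was not tested. The late log2 fold change of Vcan was 0.37 (SE 0.14, adjusted p 0.0775, exact permutation p 0.0325), short of the threshold on the adjusted p. Vcan was called without Late Vehicle replicate 6 (0.41, adjusted p 0.0412) and with library quality weights (0.36, adjusted p 0.0198). With the GC and length trend removed the value fell to 0.22 (adjusted p 0.408), with the GC slope as a covariate to 0.13 (adjusted p 0.9997) and without the 3 libraries of highest Bc1 share, a setting chosen after seeing the data, to 0.18 (adjusted p 0.452).

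Sox6 (Entrez 20679, chromosome 7, 115470872 to 116038796) encodes a transcription factor that holds precursors back from differentiation. In Late SAFit2 mice its log2 CPM was 3.70, 4.04, 4.12, 3.82 and 4.25, and Late Vehicle mice ran from 3.75 through a median of 4.02 to 4.29. The groups overlapped along nearly their whole range. Its log2 fold change was -0.03 (SE 0.14, adjusted p 0.907, exact permutation p 0.84). The sign turned with median centring (0.028), quantile normalization (0.025), library quality weights (0.08) and the replicate block (0.03). It also turned without Late SAFit2 replicate 1 (0.046) or 4 (0.015) and without Late Vehicle replicate 2 (0.011) or 6 (0.030). With the GC slope as a covariate Sox6 was at -0.26 (adjusted p 0.9997), and with the GC and length trend removed at -0.085.

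Lhfpl3 (Entrez 269629, chromosome 5, 22746059 to 23275597) encodes a membrane protein with 4 spans of the lipoma HMGIC fusion partner-like family. In Late SAFit2 replicates 1 to 5 its log2 CPM was 6.13, 6.40, 6.38, 6.82 and 6.77, and in Late Vehicle mice it ran from 5.48 through a median of 5.84 to 6.44. Every Late SAFit2 mouse was above the Vehicle median, and Late Vehicle replicates 2 (6.23) and 6 (6.44) reached into the SAFit2 range, so the groups overlapped. The log2 fold change was 0.61 (SE 0.16, adjusted p 0.0324, exact permutation p 0.0303), which passed the test. Limma voom on reads worked back from the values gave 0.61 with an adjusted p of 0.0452.

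The call of Lhfpl3 was lost in 7 of the 22 fits that left out 1 library. It was lost without Late SAFit2 replicate 2 (0.63, adjusted p 0.0566), replicate 4 (0.53, adjusted p 0.0922) or replicate 5 (0.54, adjusted p 0.0817). It was lost as well without Late Vehicle replicate 1 (0.53, adjusted p 0.0821), replicate 3 (0.53, adjusted p 0.101), replicate 4 (0.64, adjusted p 0.0708) or replicate 5 (0.56, adjusted p 0.094). The value itself stayed between 0.53 and 0.72 over the 22 fits that left out 1 library, and 15 of these fits kept the call. In those same 7 fits limma called between 1 and 8 of all genes, so the loss was common to the whole table: of 18 genes named by rule and called in the late comparison, Lhfpl3 included, 0 were called in each of the 7.

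The setting of the model mattered as well. Lhfpl3 kept its value but not its call without a variance trend (adjusted p 0.0575) and in a fit of the late libraries alone (adjusted p 0.0687), where limma called 62 and 0 of all genes. An alternative chosen after seeing the data left out the 3 libraries with the highest share of reads on Bc1, a short neuronal RNA; these were Late SAFit2 replicates 4 and 5 and Early Vehicle replicate 4. Lhfpl3 was then at 0.41 (adjusted p 0.22) and was not called.

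C1ql1 (Entrez 23829, chromosome 11, 102939264 to 102946688) encodes a secreted C1q-like protein that binds an adhesion receptor at synapses. Its log2 CPM was 3.24, 2.11, 2.66, 3.30 and 3.63 in Late SAFit2 replicates 1 to 5, and ran from 2.37 through a median of 3.54 to 4.17 in Late Vehicle mice. Both groups were spread widely and overlapped. Limma gave a log2 fold change of -0.33 (SE 0.32, adjusted p 0.475, exact permutation p 0.42), the largest SE of the 8 genes. Over the 22 fits that left out 1 library C1ql1 ran from -0.52 to -0.11. With library quality weights it was called, at -0.81 (adjusted p 0.0154), and with the trend on GC content and length removed it turned to 0.45, so neither its size nor its sign was settled.

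Neu4 (Entrez 241159, chromosome 1, 94020451 to 94028334) encodes a sialidase, an enzyme that trims sialic acid from glycans. In Late SAFit2 mice its log2 CPM was 3.15, 3.14, 2.93, 2.95 and 2.40, and in Late Vehicle mice it ran from 3.00 through a median of 3.33 to 3.57. All 5 Late SAFit2 mice lay below the Vehicle median, replicate 5 farthest, and the groups overlapped at their edges. The log2 fold change was -0.38 (SE 0.18, adjusted p 0.131, exact permutation p 0.0216), so the permutation p and the adjusted p fell on different sides of 0.05. Over the 22 fits that left out 1 library Neu4 ran from -0.44 to -0.25 and was called in 0. With the GC slope as a covariate Neu4 was at -0.070 (adjusted p 0.9997).

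Gpr17 (Entrez 574402, chromosome 18, 31942997 to 31949636) encodes a receptor of precursors that have begun to differentiate. Its log2 CPM was 4.89, 5.27, 4.94, 5.36 and 5.18 in Late SAFit2 replicates 1 to 5, and ran from 4.93 through a median of 5.47 to 5.75 in Late Vehicle mice. All 5 Late SAFit2 mice lay below the Vehicle median, and Late Vehicle replicates 2 and 6 lay among them, so the groups overlapped. With SAFit2 the log2 fold change was -0.28 (SE 0.14, adjusted p 0.151, exact permutation p 0.13). Gpr17 was called without Late Vehicle replicate 6 (-0.38, adjusted p 0.0325) and with library quality weights (-0.46, adjusted p 0.00595). With the GC and length trend removed it was at -0.018 (adjusted p 0.96), with the replicate block added to that correction at -0.063, and with the GC slope as a covariate at -0.045.

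**Figure D2:**
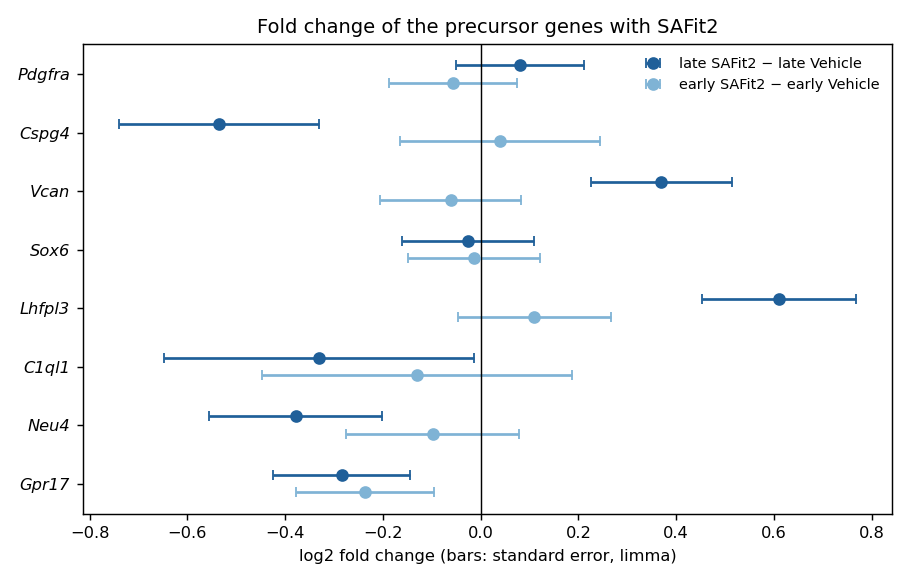
Log2 fold change of SAFit2 over Vehicle (horizontal axis) for each of the 8 precursor genes (vertical axis) in late (dark) and early mice (light), with bars of 1 standard error from limma. Late values run from -0.53 (Cspg4) to 0.61 (Lhfpl3), and early values lie between -0.24 (Gpr17) and 0.11 (Lhfpl3).

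The early comparison asked what treatment around the onset of pain leaves behind on day 30. Limma called 0 of the 8 genes, beside 0% of all genes tested (0 of 16765). At an unadjusted p under 0.05 it counted 0 of the 8 and 416 of all genes, and limma voom also called 0 of all genes, with 423 at an unadjusted p under 0.05. None of the 8 genes had early groups that did not overlap, beside 0.352% of all genes. The adjusted p was 0.9999 for each of the 8, which does not show that the groups were alike.

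Gpr17 had the largest early difference of the 8 genes. Its log2 CPM was 5.31, 5.16, 5.66, 5.34 and 5.59 in Early SAFit2 replicates 1 to 5, and ran from 5.49 through a median of 5.60 to 5.89 in Early Vehicle mice. Of the Early SAFit2 mice 4 lay below the Vehicle median, and replicates 3 and 5 lay inside the Vehicle range, so the groups overlapped. The log2 fold change was -0.24 (SE 0.14, adjusted p 0.9999, exact permutation p 0.0649).

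Lhfpl3 was at 6.08, 5.78, 5.82, 5.91 and 6.10 in Early SAFit2 and between 5.60 and 6.06 in Early Vehicle mice, groups that overlapped, with a log2 fold change of 0.11 (SE 0.16, adjusted p 0.9999, exact permutation p 0.325). The early values of the other genes were smaller than their standard errors: 0.04 for Cspg4 (SE 0.20), -0.06 for Vcan (SE 0.14), -0.01 for Sox6 (SE 0.14), -0.13 for C1ql1 (SE 0.32) and -0.10 for Neu4 (SE 0.18).

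For the mean of the early and the late effect the threshold was an unadjusted p under 0.05. Limma counted 2 of the 8 genes, beside 13.2% of all genes tested (2215 of 16765), Lhfpl3 higher and Gpr17 lower. The mean log2 difference of Lhfpl3 was 0.36 (SE 0.11, exact permutation p 0.0124 within timing) and that of Gpr17 was -0.26 (SE 0.10, exact permutation p 0.0176). After adjustment over all genes neither passed, with adjusted p of 0.325 for Lhfpl3 and 0.343 for Gpr17, and their share cannot be read as a result about the set. Both remained counted in each of the 22 fits that left out 1 library, with 0.32 to 0.42 for Lhfpl3 and -0.31 to -0.23 for Gpr17. Other genes joined them in single fits, so that 4 of the 8 were counted without Late SAFit2 replicate 1, beside 17.8% of all genes, or without Late SAFit2 replicate 2, beside 11.6%. With the GC and length trend removed Gpr17 was at -0.15 and no longer counted, and with the GC slope of the library as a covariate neither was, at 0.13 for Lhfpl3 and -0.15 for Gpr17. Without the 3 libraries of highest Bc1 share, Lhfpl3 was at 0.24 and no longer counted.

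The early and late effects were compared directly, since a call in 1 timing only does not show that the effects differ. Limma called 0 of the 8 genes and 0% of all genes (0 of 16765), and limma voom also called 0 of all genes. At an unadjusted p under 0.05 limma counted 2 of the 8 and 4167 of all genes, and voom 4022 of all genes. The 2 were Lhfpl3, with an early minus late value of -0.50 (SE 0.22, adjusted p 0.168, exact permutation p 0.098), and Vcan, at -0.43 (SE 0.20, adjusted p 0.191, exact permutation p 0.0497). For Cspg4 the value was 0.57 (SE 0.29, adjusted p 0.215, exact permutation p 0.0863). Without Late Vehicle replicate 6 the difference was called for Lhfpl3 (-0.61, adjusted p 0.0455), and with library quality weights for Lhfpl3 (-0.64, adjusted p 0.00757) and Cspg4 (0.68, adjusted p 0.0148).

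Late and Early Vehicle mice were compared for the spread between batches and timings, which cannot be told apart. Limma called 0 of the 8 genes, beside 9.11% of all genes tested (1527 of 16765), and at an unadjusted p under 0.05 it counted 0 of the 8 and 4072 of all genes. Limma voom also called 0 of the 8, and 1838 of all genes. None of the 8 genes had Vehicle groups that did not overlap, beside 4.92% of all genes. Late minus Early Vehicle values ran from -0.24 for Gpr17 (SE 0.13, adjusted p 0.282) to 0.32 for Cspg4 (SE 0.20, adjusted p 0.339), and Cspg4 was called with library quality weights (0.40, adjusted p 0.0159).

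The 8 genes differ in base composition, and the libraries differ in how levels follow it. GC content of the longest transcript was 41.5% in Lhfpl3, 43.7% in Vcan, 46.1% in Sox6 and 48.1% in Pdgfra. It was 49.7% in Neu4, 53.4% in Gpr17, 59.2% in Cspg4 and 65.8% in C1ql1, beside a median of 49.7% over 16213 genes with a GC value. Across the 8 genes the late log2 fold change and GC content had a Pearson r of -0.79, and across the 16213 genes -0.61. Early values gave -0.40 across the 8 and 0.11 across all. These correlations are across genes, which are not independent replicates.

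A slope on GC content was taken for each library, as log2 CPM against the average library, per 10 percentage points of GC content. It had a median of -0.33 (-0.48 to -0.05) in Late SAFit2 and 0.30 (-0.32 to 0.49) in Late Vehicle mice, where replicates 2 (-0.16) and 6 (-0.32) were negative. In early mice the medians were 0.07 with SAFit2 and 0.0070 with Vehicle. Late Vehicle replicates 2 and 6 were the same mice whose Lhfpl3 and Cspg4 lay among the Late SAFit2 values.

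With group means removed, the level of Lhfpl3 followed this slope over 22 libraries with r of -0.89 and Spearman's rho of -0.87. Within timings r was -0.77 in 11 early and -0.93 in 11 late libraries, and without the 2 libraries farthest from the median slope it was -0.83. For Cspg4 r was 0.83 and rho 0.86, with 0.88 in early and 0.82 in late libraries, and 0.78 without the 2 farthest. The other genes had r of 0.68 (C1ql1), -0.61 (Sox6), 0.57 (Neu4), -0.51 (Vcan), 0.49 (Gpr17) and -0.16 (Pdgfra). The value of Gpr17 rested on the 2 farthest libraries, without which r was 0.19. The 8 genes were related in this way to 4 measures of the libraries, 32 relations in all, given as description because the slope is computed from the same libraries as the levels.

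**Figure D3:**
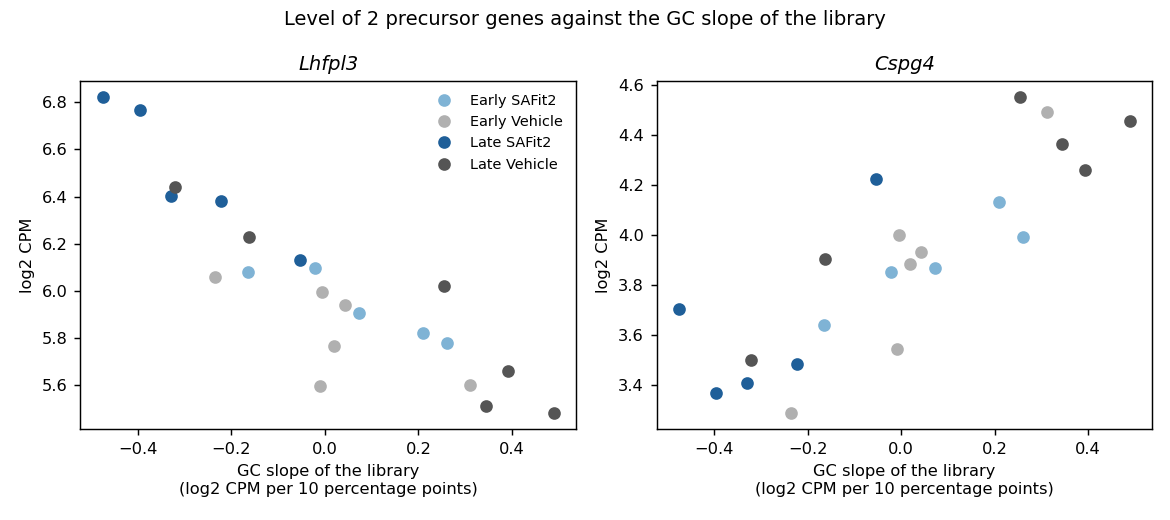
Level of Lhfpl3 (left) and Cspg4 (right) in log2 CPM (vertical axes) against the GC slope of the library (horizontal axes, log2 CPM per 10 percentage points of GC content), with 1 point per library coloured by group. Lhfpl3 lies lower and Cspg4 higher in libraries of higher slope, in each of the timings (r -0.89 and 0.83 over 22 libraries with group means removed).

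With the trend of each library on GC content and length removed, limma called 0 of the 8 genes and 0 of 16213 genes in the late comparison. Lhfpl3 was then at 0.33 (SE 0.096, adjusted p 0.129), Cspg4 at 0.04 and C1ql1 at 0.45. The same correction with the replicate block gave 0.37 for Lhfpl3 (adjusted p 0.072), and the GC slope as a covariate gave 0.10 (adjusted p 0.9997), neither past the threshold. These settings also take away any part of an effect of SAFit2 that runs along GC content, so the values with and without them cannot separate drug from base composition.

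**Figure D4:**
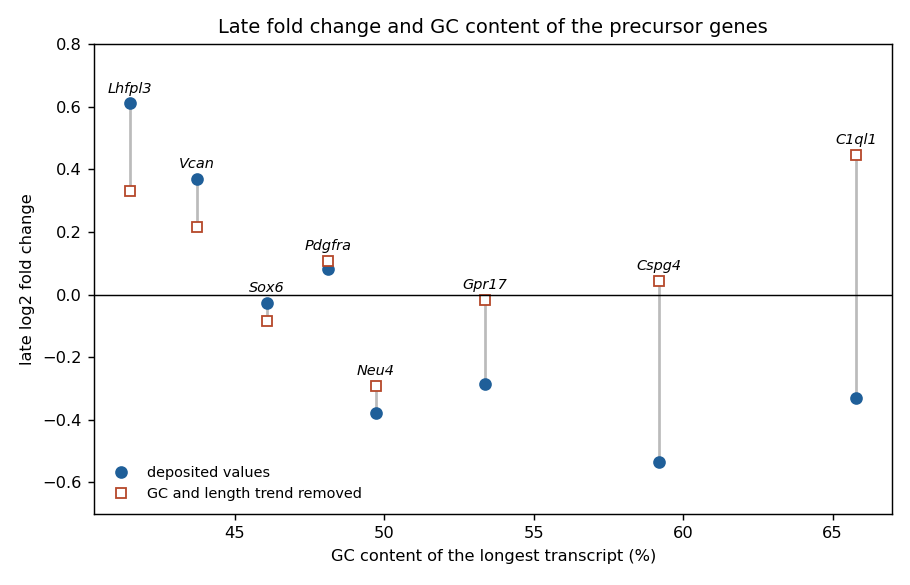
Late log2 fold change of the 8 precursor genes (vertical axis) against GC content of the longest transcript in percent (horizontal axis), from the deposited values (filled circles) and after removal of each library's trend on GC content and length (open squares). Lhfpl3 goes from 0.61 to 0.33, Cspg4 from -0.53 to 0.04 and C1ql1 from -0.33 to 0.45.

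Other measures of the libraries moved with the late groups too. Bc1 held a median of 5.14% of reads (3.31% to 16.5%) in Late SAFit2 and 1.78% (1.32% to 7.55%) in Late Vehicle mice. Mitochondrially encoded genes held 13.6% (12.7% to 14.9%) and 8.23% (6.82% to 13.9%). In the 11 late libraries, with group means removed, r of Lhfpl3 was 0.67 with the share of Bc1 and 0.79 with the mitochondrial share, and r of Neu4 was -0.81 with the share of Bc1. In the 11 early libraries the same values were -0.22, 0.53 and -0.22. Among these libraries Early Vehicle replicate 4 stood apart, with 11.9% of its reads on Bc1. Over 22 libraries r of Lhfpl3 with the share of Bc1 was 0.40, and 0.69 without the 2 libraries farthest from the median share. For Vcan r with Bc1 was 0.71 in late and -0.48 in early libraries, and 0.17 over 22, or 0.53 without the 2 farthest. With depth, r of Lhfpl3 was -0.68 in late and 0.36 in early libraries. Cspg4 kept its sign in both timings, with r of -0.61 (early) and -0.53 (late) for the share of Bc1 and -0.60 and -0.78 for the mitochondrial share. Over 22 libraries r of Cspg4 with the mitochondrial share was -0.64, and -0.35 without the 2 libraries farthest from the median share. Early Vehicle replicate 5 had the highest mitochondrial share, 18.3%. For Sox6 r with the share of Bc1 was 0.42 (early) and 0.54 (late). Scaling without Bc1 and mitochondrial genes left Lhfpl3 at 0.59 with its call (adjusted p 0.0344).

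The 8 genes did not move as 1 block from mouse to mouse. With group means removed, 15 of the 28 pairs had a positive r over 22 libraries, with a median of 0.10, beside a median of 0.0023 over all pairs of genes tested. The highest r was 0.70, between Vcan and Lhfpl3, and the lowest -0.69, between Cspg4 and Sox6. With the GC and length trend removed 19 of the 28 were positive, with a median of 0.17 beside 0.0096 over all genes, and the highest was 0.72, between Vcan and C1ql1. Cspg4 and Lhfpl3 went from -0.61 to 0.16.

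The genes whose levels were most like the mean of the 8, with group means removed over 22 libraries, were Brd1 (r 0.87), Pycr1 (0.86), Chdh (0.85), Foxo6 (0.82) and Zmym3 (0.82). Next came Mau2 (0.81), B3gat1 (0.80), Snx11 (0.80), Atxn7l2 (0.80) and Mavs (0.80). None of these 10 was called by limma in the late comparison, beside 12.1% of all genes, and their adjusted p ran from 0.0808 (Mavs) to 0.958 (Pycr1). Their GC content ran from 51.9% (Mau2) to 69.1% (Foxo6), in each above the median of 49.7% over genes with a GC value.

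Among 18 other genes of precursors, 0 were called higher and 3 lower in the late comparison, beside 12.1% of all genes called there, with a median log2 fold change of -0.34 beside -0.05 over all genes. The 3 were Olig1 (-0.56, SE 0.19, adjusted p 0.0498), Sox10 (-0.70, SE 0.21, adjusted p 0.0399) and Cacng4 (-1.04, SE 0.23, adjusted p 0.0324), whose late groups overlapped. Olig1 and Sox10 encode transcription factors of the lineage and Cacng4 an auxiliary subunit of glutamate receptors. The GC content of the transcript was 61.1% in Olig1, 61.8% in Sox10 and 54.4% in Cacng4. With the GC slope as a covariate Sox10 was at 0.04 and Olig1 at 0.099, and with the GC and length trend removed Olig1 was at 0.046 and Sox10 at -0.034. Cacng4 kept its sign in every setting, at -0.41 with the GC slope (adjusted p 0.9997) and -0.73 with the trend removed (adjusted p 0.112), but not its call in these. The summed level of the 18 genes ran from 746 to 835 CPM in Late SAFit2 and from 747 to 992 CPM in Late Vehicle mice, and the part of this in the values of the 8 genes was not tested.

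Along the lineage, limma called 0 of 10 genes of newly formed oligodendrocytes in either direction, beside 12.1% of all genes (2021 of 16765) in that comparison. Of 15 genes of mature oligodendrocytes 3 were called higher and 0 lower, while the list was split, with 7 positive and 8 negative values and a median of -0.017. The 3 called were Ermn (0.57, SE 0.16, adjusted p 0.0341), Ugt8a (0.55, SE 0.16, adjusted p 0.0369) and Mal (0.36, adjusted p 0.0458), while Mbp was at -0.24 (SE 0.19, adjusted p 0.38). Mal was called in 8 of the 22 fits that left out 1 library and in 9 of the 18 other settings. Over these 18 settings Ermn ran from 0.13 to 0.66, called in 12, and Ugt8a from 0.10 to 0.64, called in 11. Ermn and Ugt8a have a GC content of 38.0%, near that of Lhfpl3. In the early comparison limma called 0 genes of each of these lists.

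In the signalling of platelet-derived growth factor, 2 of 12 ligands, receptors and adaptors were called higher and 0 lower in late mice, beside 12.1% of all genes, a share near that background and no result about the list. They were Pik3r1 (0.35, SE 0.096, adjusted p 0.0343), a regulatory subunit of phosphoinositide 3-kinase, and Sos1 (0.43, SE 0.14, adjusted p 0.0438), an exchange factor for Ras. Their GC content was 44.9% and 41.0%, and with the GC slope as a covariate Pik3r1 was at 0.13 and Sos1 at 0.031. Of 13 genes of the chondroitin sulfate matrix, 1 was called higher and 2 lower. Hapln1, which encodes a link protein, was higher (0.63, SE 0.16, adjusted p 0.0324), and the proteoglycan gene Bcan (-0.72, SE 0.21, adjusted p 0.0361) and the glycoprotein gene Tnc (-0.89, SE 0.30, adjusted p 0.0496) were lower. The GC slope as a covariate left Bcan at 0.02 and Hapln1 at 0.14. Hapln1 kept its sign in every setting, as did Tnc, which ran from -0.92 to -0.48 over the 18 settings that left out no single library. Over the 22 fits that left out 1 library Tnc ran from -1.12 to -0.48. Its SD was 0.95 in Late SAFit2 and 0.24 in Late Vehicle mice. The matrix list shares Cspg5, Ptprz1 and Tnr with the other precursor genes. Of 11 tested relatives of the members, such as Lhfpl4 and the receptor gene of C1q-like proteins, limma called 0 in either direction.

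The named calls in these lists were lost in the same fits as that of Lhfpl3. These were the fits without Late SAFit2 replicate 2, 4 or 5, or without Late Vehicle replicate 1, 3, 4 or 5. They called 0 of the 18 genes named by rule, beside 1 to 8 of all genes. The 18 were named among genes called with all libraries, so their count can only fall. Fits without Early SAFit2 replicate 4, Early Vehicle replicate 2 or Early Vehicle replicate 6 each kept 11 of the 18 and lost Olig1, Sos1 and Tnc among others. These fits called 1189, 1279 and 1276 of all genes, beside 2021 with all libraries. Leaving out an early library does not change a late fold change, only its error and the adjustment over all genes. Without Late SAFit2 replicate 3, 10 of the 18 were kept, beside 1375 of all genes called, and Olig1, Sox10 and Sos1 were among those lost. Olig1 was also lost without Early SAFit2 replicate 1, 2, 3 or 5 and without Early Vehicle replicate 3 or 4. Tnc was also lost without Early SAFit2 replicate 2, 3 or 5, without Early Vehicle replicate 1 or 3 and without Late Vehicle replicate 2.

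Lists that mark other cells were counted in the same late comparison, where 12.1% of all genes were called. Limma called 1 of 8 endothelial genes (Cldn5, lower), 1 of 9 astrocyte genes (Fgfr3, lower), 1 of 11 neuronal genes (Slc32a1, lower), 2 of 5 ependymal genes (Foxj1 and Rarres2, lower) and 1 of 6 skeletal muscle genes (Tnnt3, higher). It called 0 of 10 microglial, 5 cell cycle, 3 red cell and 4 lumbar Hox genes. Late values went both ways in the astrocyte (5 positive, 4 negative), neuronal (6 and 5) and endothelial lists (4 and 4). All 5 ependymal values were negative and all 6 skeletal muscle values positive. The 6 skeletal muscle genes summed to 2.94, 5.62, 217, 2.30 and 159 CPM in Late SAFit2 replicates 1 to 5, beside 1.68 to 4.64 CPM in Late Vehicle mice. High sums were thus limited to replicates 3 and 5, and Tnnt3 was called in 7 of the 22 fits that left out 1 library. Replicate 2, lowest in fibroblast genes, was also the Late SAFit2 mouse of lowest Vcan and C1ql1. Pdgfra, in contrast, was lowest in replicate 1 (5.46). In Late Vehicle mice replicate 5 was lowest in fibroblast genes (175 CPM), while C1ql1 was lowest in replicate 6 (2.37). The part of tissue other than spinal cord in these values was not tested.

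Fkbp5, the gene of the target of SAFit2, was at 0.29 in the late comparison (SE 0.15, adjusted p 0.173, exact permutation p 0.0238) and at 0.18 in the early comparison (SE 0.15, adjusted p 0.9999, exact permutation p 0.4). Over the 22 fits that left out 1 library the early value ran from 0.06 to 0.24 and the late value from 0.23 to 0.35. Neither the late nor the early value passed the adjusted threshold. Library quality weights alone among the settings brought the late value past it (0.38, adjusted p 0.030). The mean effect was 0.23 (SE 0.11, adjusted p 0.359), which counts at an unadjusted p under 0.05 but not after adjustment. It was no longer counted without Early SAFit2 replicate 3, Early Vehicle replicate 5 or 6, Late SAFit2 replicate 2 or 3, or Late Vehicle replicate 5, nor with library sizes without Bc1 and mitochondrial genes (0.22).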

How the data were processed

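RNA sequencing values of 22 libraries in 4 groups were used, with each group taken from the sample labels. The deposited values are log2 CPM, which the authors made from reads aligned to mm10 and scaled by trimmed mean of M-values. Their processing notes name Trimmomatic, HISAT2 and edgeR without versions. The methods also mention a step to transcript-length scaled values (TPM), which the values do not carry: worked back, they came out as whole reads in 100.0% of cases (tolerance 0.02 reads). Depth was 11352989 to 24433349 reads on genes per library, and genes of few reads carry more counting error.

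Tests were run in R 4.3.3 with limma 3.58.1, with a mean for each group and a variance trend, on the 16765 genes that reached a log2 CPM of -1 in 5 libraries. P-values were adjusted over all these genes by Benjamini-Hochberg. Exact two-sided permutation tests used all 462 splits of a pair of groups of 5 and 6 mice, 924 for the Vehicle groups and 213444 within timing for the mean and the difference of effects. The fit was tested on simulated data. Python 3.11.15 with numpy 2.4.6, pandas 2.3.3 and matplotlib 3.10.9 made tables and plots. GC content and length came from the GRCm38 annotation for 16699 genes (96.5%), and the correction was a loess of span 0.5 for each library.

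The 8 members and 18 further lists (19 in all) were chosen with earlier results of these data known, and 1 of these lists is not reported here. Named genes are the 8 members, the most abundant gene of each list, up to 2 called genes of lowest late p per list and direction, the 10 genes most like the mean of the members, and Fkbp5. Mal, Cspg5, Ptprz1, Tnr and other genes named beyond that rule were chosen after their values were seen. The genes Lhfpl1, Aurkb, Myh1 and Hbb-bt are not in the table.

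Alternatives were no filter and a stricter filter, pseudocounts of 0.5 and 2, no variance trend, robust variance, library quality weights, median centring, quantile normalization, library sizes without Bc1 and mitochondrial genes, only the groups compared, a replicate block, GC and length correction (also together with the block), an uncorrected fit of genes that have a GC value, the GC slope of the library as a covariate, voom, and each of the 22 libraries left out in turn. Leaving out the 3 libraries of highest Bc1 share was chosen after seeing the data.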

Additional observations from a re-analysis of the deposited data

Results flagged for a closer look

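In Early SAFit2 mice, Pdgfra in replicate 2 stood below the other 4 mice, at a log2 CPM of 4.85 beside 5.35 for the next lowest. The gap took a share of 0.809 of the range of the group, above the critical value of 0.71 for 5 samples. Of the 32 groups examined (8 genes in 4 groups) this was the 1 that passed its critical value, and chance alone passes about 1 in 20 groups. Without this mouse the early log2 fold change of Pdgfra was 0.055, and it was not called.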

How the results depend on the processing

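Over 40 alternative settings, 22 of them leaving out 1 library, single-gene values kept their direction and side of the threshold in 1965 cases, were no longer past it in 334, were newly past it in 30 and turned sign in 117. The cause of a change was not tested, except that the replicate block drops the unpaired mice by construction. Replicate numbers do not pair the mice: over 10 pairs r ran from -0.236 to 0.317, above 0.1 in 2. Depth limits the genes of few reads most, such as Neu4, at 46 reads in 1 library.

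The number of precursor genes called in the late comparison, 1 with the deposited values, was 0 without a variance trend, 0 with only the groups compared, 0 with GC and length correction, alone or with the replicate block, 0 with the GC slope as covariate, 0 without the 3 libraries of highest Bc1 share, 5 with library quality weights and 2 with the replicate block. For the mean effect, 2 with the deposited values, it was 5 with library quality weights, 1 with GC and length correction, alone or with the block, 0 with the GC slope and 1 without the 3 libraries. Library quality weights called 2 for the difference of effects and 1 between Vehicle groups, 0 in both with the deposited values. They also called 38.1% of all genes in the late comparison, 38.2% for the mean, 30.3% for the difference and 30.2% between Vehicle groups, and the replicate block called 25.2% in the late comparison.

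Leaving out 1 library gave 0 to 4 late calls, 2 to 4 for the mean effect and 0 to 1 for the difference. With Late Vehicle replicate 6 left out there were 4 late calls, beside 29.7% of all genes, and 1 for the difference, beside 2513 of all genes. With Late SAFit2 replicate 1 or Late Vehicle replicate 2 left out there were 2 late calls, beside 21.1% and 22.6% of all genes. Late calls were 0 without Late SAFit2 replicate 2, 4 or 5 or Late Vehicle replicate 1, 3, 4 or 5, and the mean effect had 4 without Late SAFit2 replicate 1 or 2.

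Sign changes concerned values near 0 in many cases. In such fits the log2 fold change of Sox6 ran from -0.092 to 0.046 (late), -0.062 to 0.023 (early), -0.053 to 0.016 (mean) and -0.059 to 0.078 (difference). For Pdgfra it was -0.15 to 0.055 (early) and -0.035 to 0.068 (mean), and for Cspg4 -0.074 to 0.17, Vcan -0.15 to 0.027 and C1ql1 -0.27 to 0.074 (early). The difference ran from -0.018 to 0.40 for C1ql1 and from -0.020 to 0.14 for Gpr17, and the Vehicle comparison from -0.046 to 0.15 for Lhfpl3 and from -0.094 to 0.066 for Neu4.

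Under GC and length correction, late values turned to 0.043 (Cspg4), 0.45 (C1ql1), 0.046 (Olig1), 0.013 (Cldn5) and 0.12 (Slc32a1), the mean effect of C1ql1 to 0.14 and early Cspg4 to -0.081. The difference turned to -0.12 (Cspg4), -0.62 (C1ql1) and -0.27 (Gpr17), and the Vehicle comparison to 0.10 (Vcan) and 0.030 (Neu4). With the replicate block added, late values were 0.029 (Cspg4), 0.41 (C1ql1), 0.0024 (Olig1), 0.070 (Cldn5) and 0.083 (Slc32a1), the mean effect of C1ql1 0.13 and early Cspg4 -0.077. The difference was -0.11 (Cspg4), -0.55 (C1ql1) and -0.19 (Gpr17).

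With the GC slope as covariate, late values turned to 0.068 (Cspg4), 0.48 (C1ql1), 0.099 (Olig1), 0.020 (Mbp), 0.045 (Sox10), 0.019 (Bcan) and 0.064 (Slc32a1), and mean effects to -0.019 (Pdgfra), 0.021 (Cspg4) and 0.13 (C1ql1). Early values turned to -0.026 (Cspg4) and 0.012 (Sox6), the Vehicle comparison of C1ql1 to -0.049, and the difference to -0.094 (Cspg4), 0.065 (Lhfpl3), -0.71 (C1ql1), -0.062 (Neu4) and -0.22 (Gpr17).

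Library quality weights turned Sox6 to 0.077 (late), 0.036 (mean) and -0.081 (difference), the mean effect of Pdgfra to -0.046, early values to -0.054 (Cspg4) and 0.11 (Neu4), and the Vehicle comparison to -0.13 (Lhfpl3) and 0.18 (Neu4). The replicate block turned Sox6 to 0.030 (late), 0.0078 (early), 0.019 (mean) and -0.022 (difference). Median centring turned Sox6 to 0.028 (late), 0.0055 (mean) and -0.046 (difference), the difference of Gpr17 to -0.011 and the Vehicle comparison of Neu4 to 0.061. Quantile normalization turned Sox6 to 0.025 (late), 0.0067 (mean) and -0.037 (difference), the difference of Gpr17 to -0.0082 and the Vehicle comparison of Neu4 to 0.10. Library sizes without Bc1 and mitochondrial genes turned the mean effect of Pdgfra to -0.0035 and the Vehicle comparison of Lhfpl3 to -0.051, and limma voom turned that mean effect to -0.0052. Without the 3 libraries of highest Bc1 share, a setting chosen after seeing the data, Pdgfra was at -0.0095 (late) and -0.080 (mean), and early values were -0.023 (Cspg4) and 0.014 (Sox6).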
